A study of Mus with 9 samples.

Results

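The genes described are the heat shock proteins, the DnaJ cochaperones, the ubiquitin ligase gene Stub1 and the heat shock factors Hsf1 and Hsf2, as measured in mouse hippocampus. They were chosen by symbol: a probe set, the array's set of short probes for 1 transcript cluster, was a member when any of its symbols began with Hspa, Hspb, Hspd, Hspe, Hsph or Hsp90, was a numbered Dnaja, Dnajb or Dnajc gene, or was Stub1, Hsf1 or Hsf2, and pseudogenes were left out. This gave 77 of 22206 probe sets, naming 77 gene symbols. One symbol, Hspa1a, stood on more than 1 probe set, and 3 member probe sets carried a further symbol. All 77 could be placed on the RefSeq annotation of the mouse genome build GRCm38, which is used for the positions below.

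The study compared 3 groups of male mice, described as 16 weeks old. Acclimatization, dosing and behavioral testing came before the tissue was taken, and the paper does not state the age at that point. SAMR1 (senescence-accelerated mouse resistant 1) is the strain that ages normally, and SAMP8 (senescence-accelerated mouse prone 8) is the related strain with early decline of learning and memory. Both of these groups received vehicle, which is water in the methods and saline in the sample records. The TG-treated SAMP8 group received trigonelline (TG), an alkaloid of coffee and fenugreek, by mouth at 5 mg/kg a day for 30 days and on through 8 days of behavioral testing, so that all 3 groups had been through a water maze before the tissue was taken. TG was given to SAMP8 mice alone, so that a TG effect in SAMR1 was not measured. Both strains are inbred lines that differ at many loci, and no single mutation separates them.

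The records list 9 Clariom S Mouse arrays, 3 in each group, while the design text speaks of RNA in duplicate. Each record also carries a description of a macrophage cell line, which does not belong to hippocampus and was not used. The deposited tables hold 1 authors' average per group for each probe set, as log2 signal. No value per array was analysed here and the authors' own p-values are not used, so no SD, overlap of the groups or test is given for any value below, and every comparison is a description of 3 averages. Precision is limited by the 3 arrays behind each average. The SAMP8 averages are the same in both tables, so that TG-treated SAMP8 could also be set against SAMR1. The comparisons share groups: SAMP8 stands in SAMP8 vs SAMR1 and in TG-treated SAMP8 vs SAMP8, and SAMR1 and TG-treated SAMP8 each stand in 2 comparisons as well. A difference is given as the difference of log2 averages, and a probe set is said to lie past the limit when it differs by over 1.5-fold, which is 0.585 on the log2 scale. Levels are not compared between genes, since probes differ in how well they bind, and the average signal of a probe set serves only to place it on the scale of the array. Where 3 averages of a gene follow each other without group names, they stand in the order SAMR1, SAMP8 and TG-treated SAMP8, and 3 medians or differences stand in the order SAMP8 vs SAMR1, TG-treated SAMP8 vs SAMP8, TG-treated SAMP8 vs SAMR1.

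Molecular chaperones keep proteins folded. HSP70 proteins bind unfolded stretches in cycles of ATP hydrolysis, DnaJ proteins (the HSP40 family) bring clients to HSP70 and trigger the hydrolysis through their J domain, and nucleotide exchange factors reset the cycle. HSP90 takes over nearly folded clients such as kinases and steroid receptors, the chaperonin HSP60 with its lid HSP10 folds proteins inside mitochondria, and small HSPs hold unfolded proteins without using ATP. CHIP, the product of Stub1, sits where HSP70 or HSP90 present a client and marks it with ubiquitin for degradation. HSF1 switches on the inducible chaperones under stress and is itself held back by HSP70 and HSP90. In neurons chaperones also serve vesicle traffic: Hsc70 (Hspa8) with auxilin (Dnajc6) strips clathrin from endocytosed vesicles, and cysteine string protein (Dnajc5) keeps the release machinery folded.

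Markers of hippocampal neurons were looked up, but no other tissue was measured, so their averages do not test the tissue label. The 9 hippocampal neuron markers, among them the granule cell gene Prox1 and the pyramidal cell gene Neurod6, had averages from 6.57 to 19.93 over the groups. Prox1 and Calb1, 2 of the 9, were higher by over 1.5-fold in SAMP8 than in SAMR1, and Prox1 and Zbtb20 were lower by over 1.5-fold in TG-treated SAMP8 than in SAMP8. Markers of other cell types and of neighboring tissue also differed between groups. The lowest average of any probe set was 2.39, so that a low average does not show that a marker was expressed. Some markers lay near that floor, such as Des at 3.46, 3.46 and 3.15. In SAMP8 vs SAMR1 all 5 astrocyte markers (Gfap 0.95, Slc1a3 0.62) and all 5 thalamic markers (Tcf7l2 0.76, Slc17a6 0.66) were higher. The 5 microglial markers were mixed (median 0.09): Aif1 (1.51) and P2ry12 (0.86) were past the limit, while Cx3cr1 (-0.31) and Tmem119 (-0.08) were lower. In the choroid plexus, meningeal, smooth muscle, endothelial and ependymal lists, Kl, Ttr, Igf2 (1.58), Ptgds, Acta2 (2.19) and Flt1 were higher by over 1.5-fold there, and Col1a2 (-0.64), Tagln (-0.83) and Dnah11 (-0.95) lower. In TG-treated SAMP8 vs SAMP8, 3 of 7 meningeal, 2 of 5 smooth muscle, 1 of 6 choroid plexus, 1 of 5 thalamic (Prkcd -1.50) and 1 of 5 striatal (Drd2 -0.96) markers were lower by over 1.5-fold, and Ttr, Tagln, Mag and Tmem212 were the markers of these and the oligodendrocyte and ependymal lists that were higher by that much. The summed linear signal of the meningeal markers was 2686 for SAMR1, 3007 for SAMP8 and 1199 for TG-treated SAMP8, and that of the smooth muscle markers was 162, 335 and 145. That of the choroid plexus markers was 644, 1020 and 1363 and was mostly that of Ttr, while 4 of the 6 were lower in TG-treated SAMP8 than in SAMP8 (median -0.19). The sums were 345575, 358680 and 350618 for astrocytes, 3119, 5097 and 4094 for microglia, 2290, 2797 and 1448 for the thalamus and 254, 273 and 217 for the striatum. Their part in the chaperone values was not tested. In bulk tissue, fewer cells of a type and less RNA per cell cannot be told apart.

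Of the 77 members, 60 were not past the limit in any comparison. The matching share of all probe sets was not computed, so this count is not read as a trait of chaperone genes. In SAMP8 vs SAMR1, 5 of 77 members (6.49%) were higher by over 1.5-fold, against 5.00% of all probe sets, and 3 (3.90%) were lower, against 6.08%. The 5 were Hspa5, Hsp90ab1, Dnajb1, Dnajb4 and Dnajc13, and the 3 were Hspa1l, Hspa9 and Dnajc11. In TG-treated SAMP8 vs SAMP8, 4 members (5.19%) were higher, against 4.48% of all probe sets, namely Hspa9, Hspe1, Dnajb1 and Stub1. Dnajb5 and Dnajc10, 2 of 77 (2.60%), were lower there, against 3.74%. In these 2 comparisons the share of members past the limit was thus near that of the array as a whole. In TG-treated SAMP8 vs SAMR1, 10 members (13.0%) were higher, against 5.62%, and 1 (1.30%) was lower, against 4.83%. The 10 were Hspa1a, Hspa5, Hspa12b, Hsph1, Hsp90ab1, Hspe1, Hspb11, Dnajb1, Dnajc13 and Stub1, and the 1 lower member was Dnajc5b.

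**Figure D1:**
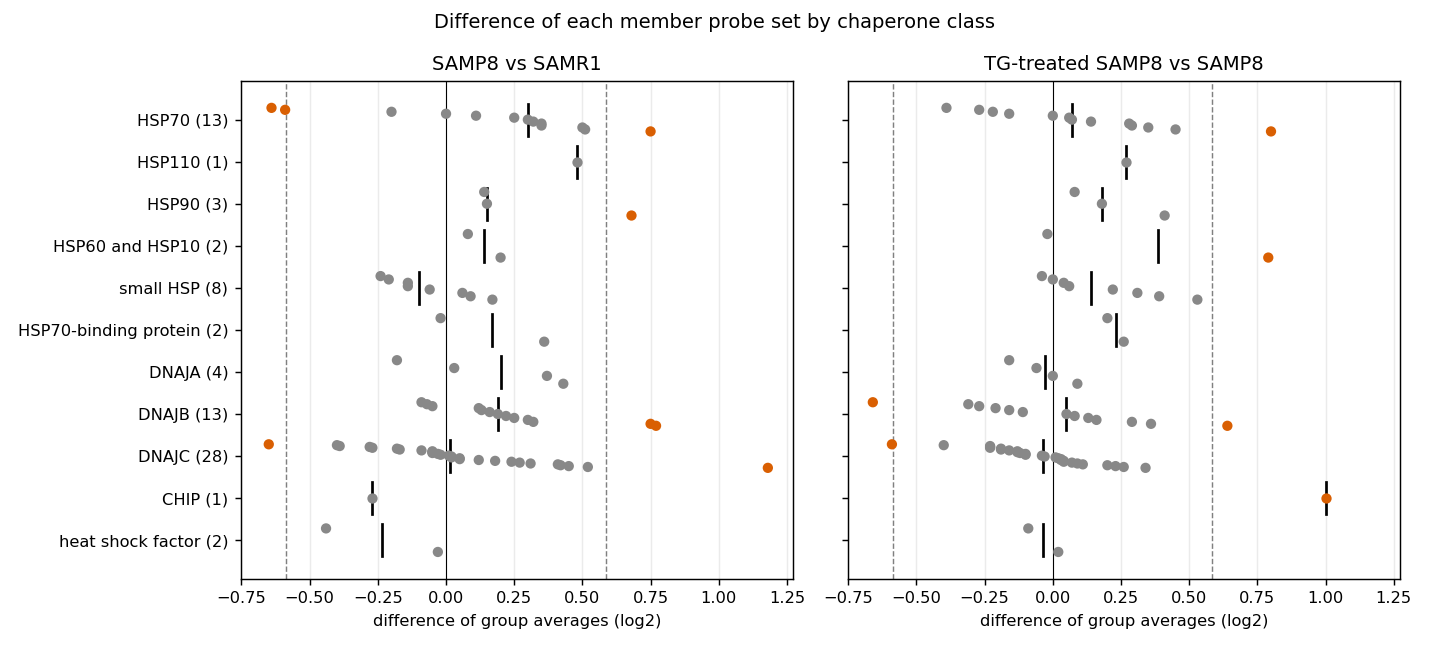
Difference of the group averages (log2) of each member probe set, in rows by chaperone class with the number of members in brackets, for SAMP8 vs SAMR1 (left) and TG-treated SAMP8 vs SAMP8 (right). Each point is 1 probe set, black bars are class medians, dashed lines mark 1.5-fold and orange points lie past it. HSP70 members spread from -0.64 to 0.75 on the left, while the 28 DNAJC members center near 0 in both panels and Stub1 stands at 1.0 on the right.

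The median over the 77 members was 0.09 in SAMP8 vs SAMR1, 0.04 in TG-treated SAMP8 vs SAMP8 and 0.08 in TG-treated SAMP8 vs SAMR1. Over all probe sets these medians were 0.00, 0.01 and -0.01. The classes differed in which group was highest, as the plot of the highest group by class shows. The TG-treated SAMP8 average was the highest of the 3 in 34 of 77 members (44.2%), against 31.4% of all probe sets, and the SAMR1 average was the lowest in 39 (50.6%), against 33.2%. Among probe sets in the upper 50% of signal, where 59 members lie, TG-treated SAMP8 was highest in 45.8% of members and 31.8% of all, and SAMR1 was lowest in 55.9% of members and 42.0% of all. All 3 HSP90 members, Hsph1, Stub1 and both HSP70-binding proteins had their highest average in TG-treated SAMP8, and both heat shock factors had theirs in SAMR1. Among DNAJC members the counts were 11 for SAMR1, 9 for SAMP8 and 8 for TG-treated SAMP8.

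**Figure D2:**
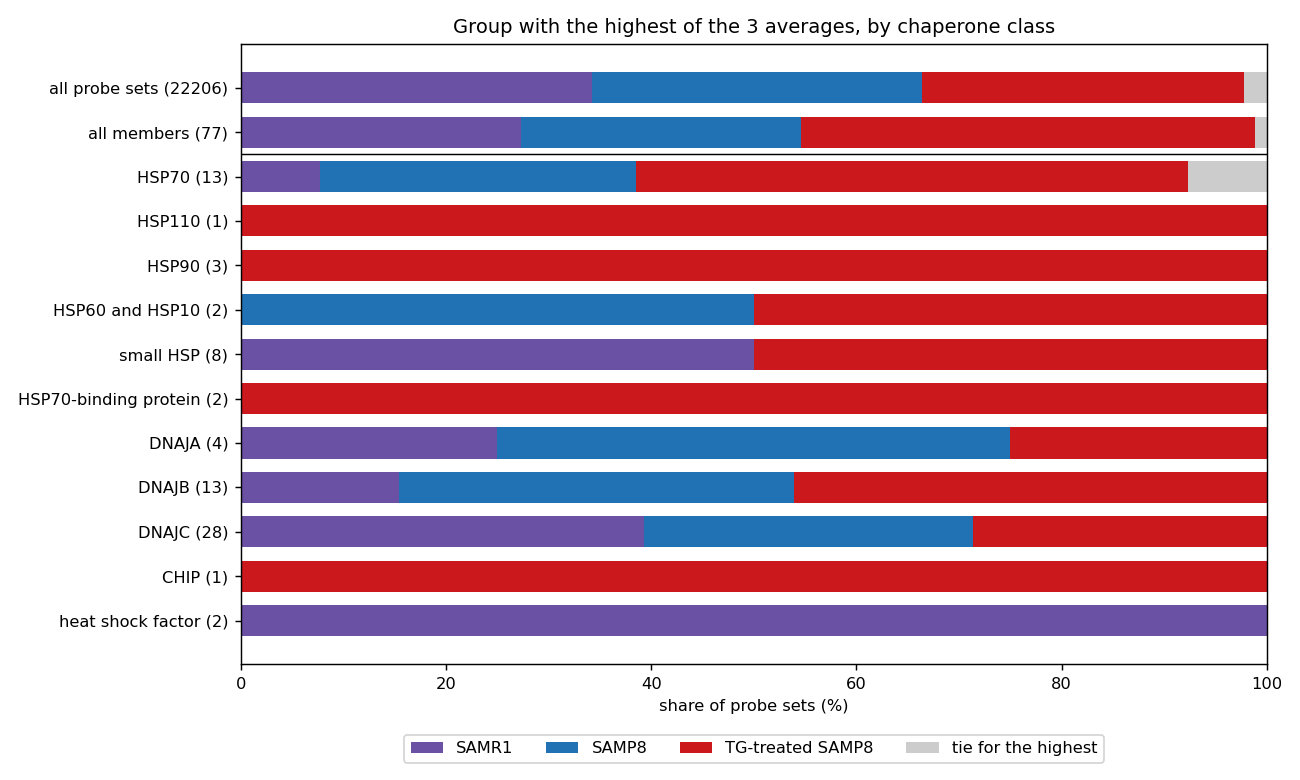
Share of probe sets (%) in which SAMR1, SAMP8 or TG-treated SAMP8 had the highest of the 3 averages, for all probe sets, all members and each chaperone class, with the number of probe sets in brackets. TG-treated SAMP8 was highest in 44.2% of members and in 31.4% of all probe sets, and several classes hold only 1 to 4 probe sets.

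Stub1 had the widest difference of all members between TG-treated and untreated SAMP8. Its average was 8.70 for SAMR1, 8.43 for SAMP8 and 9.43 for TG-treated SAMP8. SAMP8 was the lowest group and TG-treated SAMP8 the highest. The difference was -0.27 for SAMP8 vs SAMR1, 1.0 for TG-treated SAMP8 vs SAMP8, which is 2.0-fold, and 0.73 (1.66-fold) for TG-treated SAMP8 vs SAMR1. Among probe sets of like signal (1 of 20 classes of average signal) the TG-treated SAMP8 vs SAMP8 difference lay at percentile 99.4. Stub1 lies on chromosome 17 from 25830634 to 25832919, and its probe set also carries the microRNA gene Mir3082, whose transcript cannot be told apart from that of Stub1 here. The gene spans 2286 bases, and short genes in general had slightly higher averages in TG-treated SAMP8 than in SAMP8. Against SAMR1 the median TG-treated SAMP8 difference over all genes of up to 8896 bases was 0.00. The median TG-treated SAMP8 vs SAMP8 difference over all probe sets was 0.08 for genes of up to 8896 bases, 0.01 up to 31331 bases and -0.08 for longer ones, and over members it was 0.08, 0.03 and -0.12. Set against probe sets of like signal and length, the Stub1 difference was 0.79 for TG-treated SAMP8 vs SAMP8 and 0.58 for TG-treated SAMP8 vs SAMR1, and the latter falls just short of the limit.

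Genes whose products act with CHIP had patterns of their own. CHIP binds the tails of HSP70 and HSP90 proteins. Hspa8, the constitutive cytosolic HSP70, was listed at 19.93 in all 3 groups, which is the upper limit of the scale and is shared by 10 probe sets in all groups, so that no difference could be measured for it. Bag1, a nucleotide exchange factor that links HSP70 to the proteasome, had averages of 10.70, 10.37 and 10.44 in SAMR1, SAMP8 and TG-treated SAMP8. Bag6, which hands misfolded membrane proteins to the proteasome, had 9.93, 10.69 and 9.60. SAMP8 was thus the highest group for Bag6, with differences of 0.76 for SAMP8 vs SAMR1 and -1.09 for TG-treated SAMP8 vs SAMP8. Hspbp1, an inhibitor of CHIP that also acts as an exchange factor, had averages of 9.06, 9.04 and 9.30.

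In the HSP70 class of 13 probe sets, 9 had a higher average in SAMP8 than in SAMR1 and the class median was 0.30. The class was set by symbol, so it also holds the exchange factors Hspa4 and Hspa4l, at 0.25 and 0.32 in that comparison. It holds Hspa8 at the upper limit of the scale as well. For TG-treated SAMP8 vs SAMP8 the median was 0.07, with 8 higher, and for TG-treated SAMP8 vs SAMR1 it was 0.21, with 10 higher. Of all probe sets, 49.5%, 50% and 48.1% were higher in these 3 comparisons. Against probe sets of like signal and length the strain median was 0.17.

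Hspa9, the HSP70 of the mitochondrial matrix (mortalin), which pulls proteins in through the import channel, was the HSP70 member with the widest TG difference. Its averages were 11.46 for SAMR1, 10.87 for SAMP8 and 11.67 for TG-treated SAMP8. SAMP8 was low and the other two groups were near each other, with differences of -0.59 (0.66-fold), 0.80 (1.74-fold) and 0.21 in SAMP8 vs SAMR1, TG-treated SAMP8 vs SAMP8 and TG-treated SAMP8 vs SAMR1. Hspe1, the lid HSP10 of the mitochondrial chaperonin, had averages of 8.91, 8.99 and 9.78. Here only the TG-treated group stood high, at 0.79 (1.73-fold) over SAMP8, while the strains differed by 0.08. Hspd1, which encodes the chaperonin HSP60 itself, had averages of 12.82, 13.02 and 13.00 and did not share that pattern. The pair are neighbors on chromosome 1, Hspd1 from 55077833 to 55088243 and Hspe1 from 55088148 to 55091317, so that their ends overlap in the annotation, and they are known to be transcribed from a shared promoter. Against probe sets of like signal and length the TG-treated SAMP8 vs SAMP8 difference was 0.58 for Hspe1, just short of the limit, and 0.80 for Hspa9.

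Of the 10 mitochondrial members, 7 were higher in SAMP8 than in SAMR1, 7 in TG-treated SAMP8 than in SAMP8 and 8 in TG-treated SAMP8 than in SAMR1, where 49.5%, 50% and 48.1% of all probe sets were. Dnajc11, a J protein of the complex that shapes the inner membrane, had averages of 10.14, 9.49 and 9.72 in SAMR1, SAMP8 and TG-treated SAMP8. It was lower in both SAMP8 groups than in SAMR1, with differences of -0.65 and -0.42. The median difference of the mitochondrial members was 0.14 in SAMP8 vs SAMR1, 0.08 in TG-treated SAMP8 vs SAMP8 and 0.23 in TG-treated SAMP8 vs SAMR1. The members past the limit were Hspa9 and Dnajc11 (lower) in the first comparison, Hspa9 and Hspe1 (higher) in the second and Hspe1 (higher) in the third.

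The heat-inducible HSP70 genes Hspa1a and Hspa1b lie side by side on chromosome 17 with Hspa1l, and their coding sequences are nearly the same, so that their probe sets may share signal. The probe set of Hspa1a alone had averages of 7.37 for SAMR1, 7.72 for SAMP8 and 8.01 for TG-treated SAMP8. The probe set that carries Hspa1b together with Hspa1a had 7.24, 7.04 and 7.32. The probe sets went opposite ways between the strains, at 0.35 and -0.20, and the same way with TG, at 0.29 and 0.28. The probe set of Hspa1a alone was past the limit in TG-treated SAMP8 vs SAMR1, at 0.64, or 0.52 against probe sets of like signal and length. Hspa1l, a testis form, had averages of 4.34, 3.70 and 3.77, with a difference of -0.64 in SAMP8 vs SAMR1.

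The endoplasmic reticulum HSP70, Hspa5 (BiP), which also gates the unfolded protein response, had averages of 14.58 for SAMR1, 15.33 for SAMP8 and 15.39 for TG-treated SAMP8. Both SAMP8 groups were high, by 0.75 (1.68-fold) and 0.81 (1.75-fold), and they differed from each other by 0.06. Against probe sets of like signal and length the differences from SAMR1 were 0.63 and 0.44. Hspa13, a microsomal HSP70, had the lowest TG-treated SAMP8 vs SAMP8 value of the class, -0.39, with averages of 10.50, 10.80 and 10.41. Hspa4, an HSP110-type exchange factor of the cytosol, had 13.92, 14.17 and 13.95. Hspa12b, a distant HSP70 known from endothelium, had 4.69, 5.19 and 5.54, and was higher by 0.85 (1.80-fold) in TG-treated SAMP8 than in SAMR1. Of 5 endothelial markers, 3 were higher in that comparison and 0 were past the limit. Their summed linear signals were 1033, 1409 and 1374 in SAMR1, SAMP8 and TG-treated SAMP8, and their part in the Hspa12b values was not tested. The remaining HSP70 members, Hspa2, Hspa4l, Hspa12a and Hspa14, lay between -0.27 and 0.56 in every comparison.

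Among the HSP90 genes, Hsp90ab1, the constitutive cytosolic form, differed most. Its averages were 14.21 for SAMR1, 14.89 for SAMP8 and 15.30 for TG-treated SAMP8. The SAMP8 groups were both higher than SAMR1, by 0.68 (1.60-fold) and 1.09 (2.13-fold), and TG-treated SAMP8 was 0.41 above SAMP8. Hsp90aa1, the inducible cytosolic form, had averages of 17.20, 17.35 and 17.53, and Hsp90b1, the form of the endoplasmic reticulum (GRP94), had 14.33, 14.47 and 14.55. Both had the same order of groups as Hsp90ab1 with smaller steps, between 0.08 and 0.18. Hsph1, an HSP110 exchange factor that helps to dissolve aggregates, had averages of 13.58, 14.06 and 14.33, and lay 0.75 (1.68-fold) higher in TG-treated SAMP8 than in SAMR1. Against probe sets of like signal and length the SAMP8 vs SAMR1 difference of Hsp90ab1 was 0.56, under the limit. It was 0.23 for TG-treated SAMP8 vs SAMP8 and 0.72 for TG-treated SAMP8 vs SAMR1. For Hsp90aa1 such differences were 0.03, 0.00 and -0.04 in SAMP8 vs SAMR1, TG-treated SAMP8 vs SAMP8 and TG-treated SAMP8 vs SAMR1. The upward steps of Hsp90aa1 were thus not kept. Those of Hsp90b1 were kept but small, at 0.06 and 0.07, with 0.14 for TG-treated SAMP8 vs SAMR1.

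The DNAJB class held 13 probe sets, with medians of 0.19, 0.05 and 0.08 in SAMP8 vs SAMR1, TG-treated SAMP8 vs SAMP8 and TG-treated SAMP8 vs SAMR1. Dnajb1, the main inducible HSP40 of the cytosol, had averages of 8.51 for SAMR1, 9.28 for SAMP8 and 9.92 for TG-treated SAMP8. It was the only member past the limit in all 3 comparisons, with 0.77 (1.71-fold), 0.64 (1.56-fold) and 1.41 (2.66-fold). The last was the widest difference of any member. Dnajb1 lies on chromosome 8 from 83608175 to 83612653, and against probe sets of like signal and length its differences were 0.60, 0.60 and 1.21. Dnajb4, another stress-inducible J protein, had averages of 10.22, 10.97 and 10.66, so that SAMP8 was the highest group. Dnajb5, a close relative of Dnajb1, had 10.61, 10.93 and 10.27. Of the 13 DNAJB probe sets, 6 were lower in TG-treated SAMP8 than in SAMP8. Dnajb5 was the only 1 lower by over 1.5-fold, at -0.66 (0.63-fold). These close relatives of the same subclass thus had 3 different orders of the groups.

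Other DNAJB members differed less. Dnajb2, a neuronal J protein with ubiquitin-binding motifs, had averages of 8.19, 8.32 and 8.61 in SAMR1, SAMP8 and TG-treated SAMP8. Dnajb6, which blocks polyglutamine aggregation, had 14.61, 14.56 and 14.69. Dnajb3, a testis gene, had the lowest strain value of the class, -0.09, with averages of 3.50, 3.41 and 3.14. Each of these 3 stayed within 0.42 of SAMR1 in both SAMP8 groups.

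The 4 DNAJA members had medians of 0.20, -0.03 and 0.20. Dnaja1, the main cytosolic partner of HSC70, whose probe set also carries Mir207, had averages of 16.29 for SAMR1, 16.32 for SAMP8 and 16.41 for TG-treated SAMP8. Dnaja3, the J protein of the mitochondrial matrix that works with Hspa9, had 8.30, 8.73 and 8.57, an order unlike that of Hspa9, for which SAMP8 was lowest. Dnaja4 had 11.05, 10.87 and 10.87. No DNAJA member was past the limit in any comparison.

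The 28 DNAJC members, a varied class that shares only the J domain, centered near 0, with medians of 0.01, -0.04 and -0.04. Dnajc13 (RME-8), which acts on early endosomes and retromer sorting, had the widest strain difference of all members. Its averages were 6.97 for SAMR1, 8.15 for SAMP8 and 8.02 for TG-treated SAMP8. Both SAMP8 groups stood high, by 1.18 (2.27-fold) and 1.05 (2.07-fold), and they differed from each other by -0.13. Dnajc13 lies on chromosome 9 from 104151597 to 104263608, and against probe sets of like signal and length the strain difference was 1.07.

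Dnajc10 (ERdj5), a disulfide reductase of the endoplasmic reticulum that works with BiP, had averages of 11.44, 11.96 and 11.37. SAMP8 was the high group, and TG-treated SAMP8 differed from it by -0.59 (0.66-fold), which became -0.46 against probe sets of like signal and length. Dnajc17 had the highest TG value of the class, 0.34, with averages of 6.81, 6.54 and 6.88. Dnajc5b, a testis relative of cysteine string protein, had 4.78, 4.38 and 4.15 and was the 1 member lower by over 1.5-fold in TG-treated SAMP8 than in SAMR1 (-0.63). The 24 DNAJC members other than Dnajc5b, Dnajc10, Dnajc11 and Dnajc13 were not past the limit in any comparison.

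**Figure D3:**
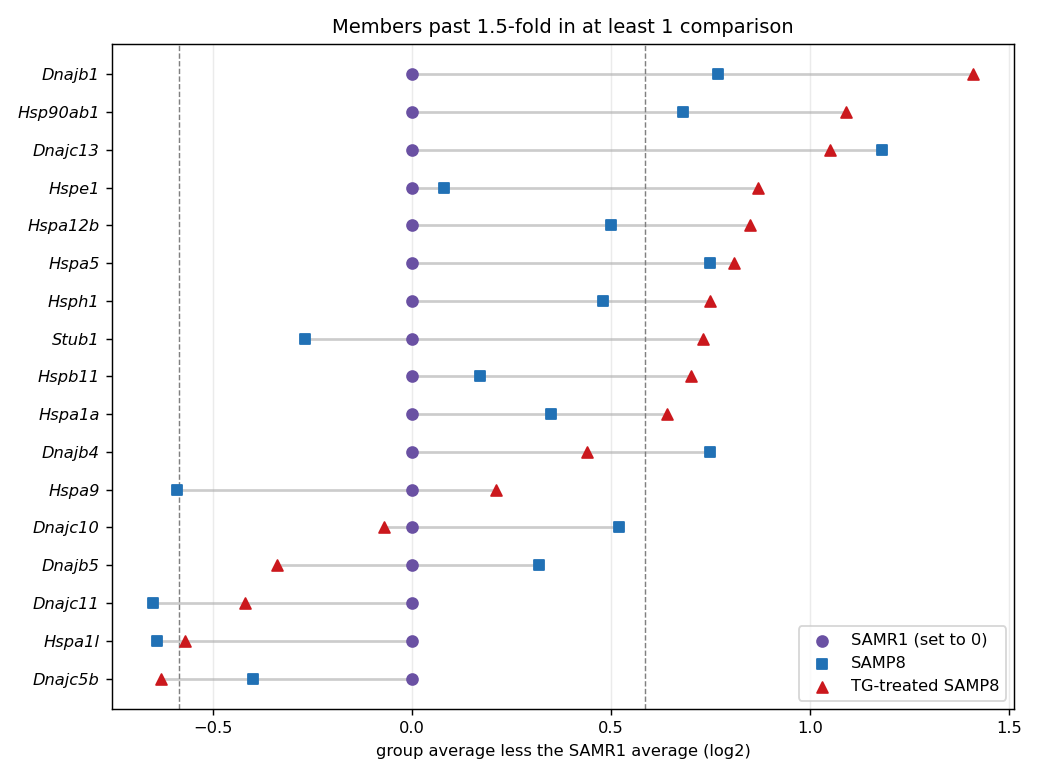
Group averages less the SAMR1 average (log2) for the 17 members past 1.5-fold in at least 1 comparison, with SAMR1 set to 0 (circles), SAMP8 (squares) and TG-treated SAMP8 (triangles). Dashed lines mark 1.5-fold from SAMR1. Dnajb1 and Hsp90ab1 step upward from SAMR1 through SAMP8 to TG-treated SAMP8, Dnajc13 and Hspa5 are high in both SAMP8 groups, and Stub1 and Hspa9 are lowest in SAMP8.

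The chaperones of synaptic vesicles showed small differences. Dnajc5 had averages of 11.16 for SAMR1, 11.18 for SAMP8 and 11.05 for TG-treated SAMP8. Dnajc6 had 13.91, 13.73 and 13.54, with steps of -0.18 and -0.19. Gak, the widely expressed relative of auxilin, had 9.22, 9.34 and 9.16. Of the 5 synaptic members, which include Hspa8 at the upper limit of the scale, Dnajc13 alone was past the limit. The list medians were 0.02, -0.13 and 0.00 in SAMP8 vs SAMR1, TG-treated SAMP8 vs SAMP8 and TG-treated SAMP8 vs SAMR1. The last is the value of Hspa8 itself, for which no difference could be measured. In that comparison Dnajc13 was at 1.05, Dnajb2 at 0.42, Dnajc5 at -0.11 and Dnajc6 at -0.37.

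Of the 8 small HSP probe sets, 3 were higher in SAMP8 than in SAMR1 (median -0.10) and 6 in TG-treated SAMP8 than in SAMP8 (median 0.14). Of all probe sets, 49.5% and 50% were. These shares take in every signal level, whereas 4 of the 8 lay in the dimmest 25% of the array. With those left out, the medians over the other 4 were 0.00 and 0.23. In the dimmer 50% of the array as a whole, SAMP8 was lowest in 43.0% and SAMR1 highest in 43.1%. The strain median of -0.10 is thus not read as a trait of small HSPs. Hspb1 (HSP27), a heat-inducible holdase, had averages of 4.09, 3.95 and 3.91. Hspb8, which works with Bag3 in selective autophagy, had 4.84, 4.78 and 4.82. Hspb9, a testis gene, had 3.26, 3.02 and 3.33. None of the 8 was past the limit in SAMP8 vs SAMR1 or in TG-treated SAMP8 vs SAMP8. Hspb11, at 4.62, 4.79 and 5.32, was higher in TG-treated SAMP8 than in SAMR1 by 0.70 (1.62-fold). Despite its name Hspb11 encodes a protein of intraflagellar transport in cilia (IFT25). The alpha-crystallin gene Cryab, a small HSP that the symbol rule does not take, had 7.48, 8.01 and 8.34, and lay 0.86 higher in TG-treated SAMP8 than in SAMR1.

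The HSP70-binding proteins Hspbp1 and Hspbap1 were both higher in TG-treated SAMP8 than in SAMP8, by 0.26 and 0.20. Hspbap1, which binds HSPB1 despite standing here with the HSP70-binding proteins, had averages of 5.30, 5.66 and 5.86.

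The heat shock factors had their highest averages in SAMR1. Hsf1 had averages of 9.35 for SAMR1, 8.91 for SAMP8 and 8.93 for TG-treated SAMP8. It was lower in both SAMP8 groups, with differences of -0.44 and -0.42, and TG-treated and untreated SAMP8 differed by 0.02. Hsf2, which acts in development and with Hsf1 under stress, had 10.10, 10.07 and 9.98. HSF1 is known to be set mainly by its oligomer state and phosphorylation, which arrays do not measure.

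The 12 probe sets of heat-inducible genes were mostly higher in the SAMP8 groups. Their median difference was 0.17 in SAMP8 vs SAMR1, 0.23 in TG-treated SAMP8 vs SAMP8 and 0.39 in TG-treated SAMP8 vs SAMR1, and without Hspa8, at the upper limit of the scale, it was 0.20, 0.27 and 0.44. The list also holds Hspa8 and Hsp90ab1, described above as constitutive forms. In TG-treated SAMP8 vs SAMR1, 10 of 12 were higher, against 48.1% of all probe sets. There 5 were past the limit, against 5.62% of all probe sets, namely Dnajb1, Hsp90ab1, Hspe1, Hsph1 and Hspa1a. Hspb1 was lower there, at -0.18. The medians against probe sets of like signal and length were 0.10, 0.12 and 0.22 with Hspa8, and 0.13, 0.16 and 0.40 without it. The 6 immediate early genes, which respond to neuronal activity and handling, were also higher: all 6 in TG-treated SAMP8 vs SAMP8 (median 0.43) and 5 of 6 in TG-treated SAMP8 vs SAMR1 (median 0.74), where 50% and 48.1% of all probe sets were. In SAMP8 vs SAMR1, 4 of 6 were higher (median 0.15) and Fosb was at -0.44. Their summed linear signals of 3838, 6573 and 7193 are mostly those of Egr1. Their part in the chaperone values was not tested.

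**Figure D4:**
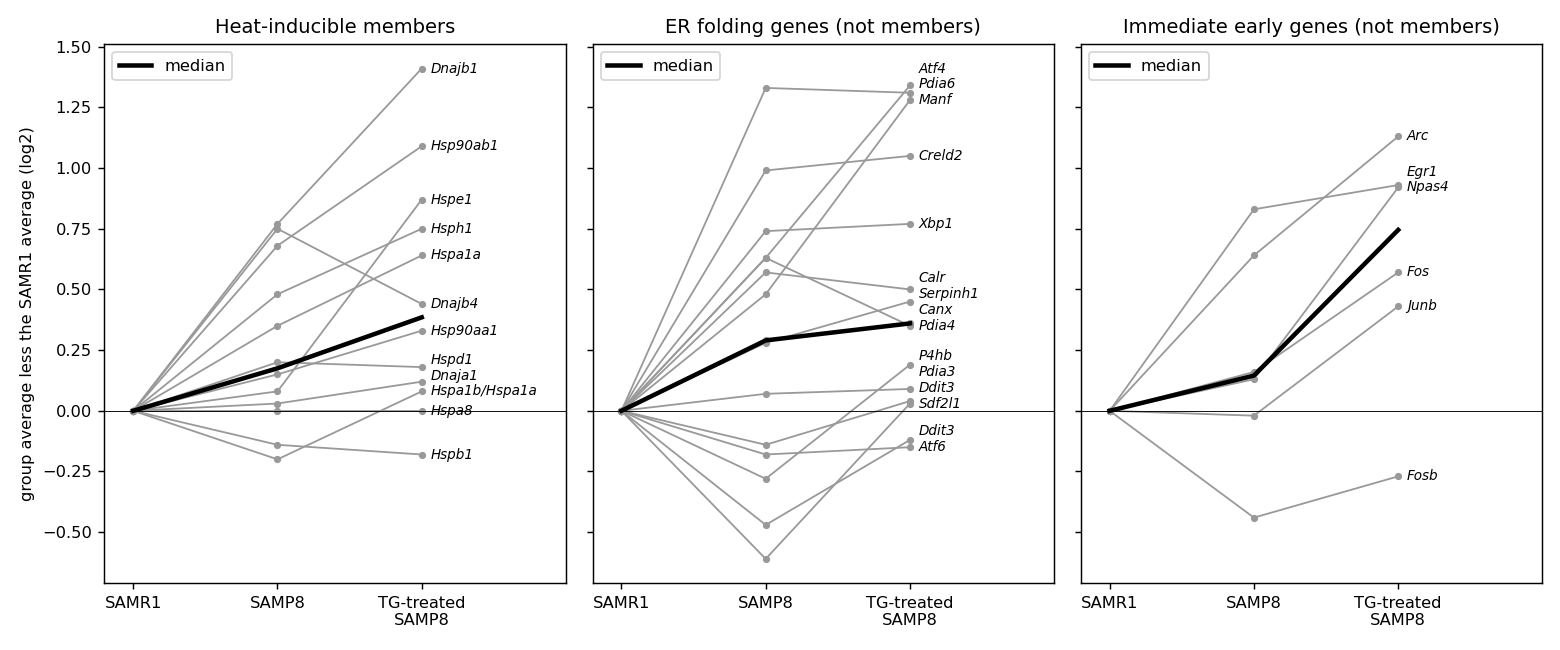
Group averages less the SAMR1 average (log2) for the heat-inducible members (left), genes of folding in the endoplasmic reticulum (ER) that are not members (middle) and immediate early genes (right), with thin lines for probe sets and thick lines for the list median. The heat-inducible median reaches 0.39 and the immediate early median 0.74 in TG-treated SAMP8, while single genes of each list run to both sides of 0.

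Members of the endoplasmic reticulum had 1 probe set past the limit in each comparison. Of 12 members placed there, 9 were higher in SAMP8 than in SAMR1 (median 0.20) and 6 in TG-treated SAMP8 than in SAMP8 (median -0.05), where 49.5% and 50% of all probe sets were. Hspa5 was past the limit in both comparisons with SAMR1 and Dnajc10 in TG-treated SAMP8 vs SAMP8. Dnajb9 (ERdj4), a target of the unfolded protein response that returns BiP to its stress sensor, had averages of 11.55, 11.77 and 12.13. In TG-treated SAMP8 vs SAMR1 it was at 0.58, but at only 0.15 against probe sets of like signal and length. Among 15 probe sets of other folding and stress genes of this compartment, 5 were higher by over 1.5-fold in SAMP8 than in SAMR1, against 5.00% of all probe sets. They were Atf4, Creld2, Pdia4, Pdia6 and Xbp1, while Sdf2l1 was lower, against 6.08%. In TG-treated SAMP8 vs SAMP8, 12 of the 15 were higher (median 0.07), against 50% of all probe sets. There Atf4, Manf and Sdf2l1 were higher by over 1.5-fold, against 4.48%. Pdia6, a disulfide isomerase, had averages of 10.06, 11.39 and 11.37 in SAMR1, SAMP8 and TG-treated SAMP8, a pattern of levels like that of Hspa5, high in both SAMP8 groups. The stress factor Atf4 had 9.17, 9.80 and 10.51, while Ddit3 (CHOP), a death-promoting target of ATF4, had 8.47, 8.00 and 8.35 on one probe set and 7.36, 7.22 and 7.40 on another.

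Among the other genes of the pathway, those lower by over 1.5-fold with TG all stood in the list drawn up for HSP70 nucleotide exchange. That list takes in the Bag genes by name, Bag6 among them, whether or not each product is an exchange factor. Of its 10 genes, 4 were lower by over 1.5-fold in TG-treated SAMP8 than in SAMP8, against 3.74% of all probe sets. They were Bag4, Bag6, Hyou1 and Sil1, and 0 were higher by that much. The list as a whole was even, with 5 higher, 5 lower and a median of 0.01. Of exchange factors among the members, Hsph1 and Hspbp1 were at 0.27 and 0.26, and Hspa4 and Hspa4l at -0.22 and -0.27. Hyou1 and Sil1 both serve BiP in the endoplasmic reticulum. Hyou1 had averages of 12.20 for SAMR1, 12.66 for SAMP8 and 11.98 for TG-treated SAMP8, and Sil1 had 6.29, 6.88 and 6.27, so that SAMP8 was the high group for both. Grpel2, an exchange factor for mitochondrial Hspa9, had 5.04, 6.14 and 6.20, and its relative Grpel1 had 9.87, 10.27 and 10.36, both low in SAMR1, whereas Hspa9 was low in SAMP8. Bag3, a heat-inducible partner of HSPB8, had 5.45, 5.70 and 6.06 and was past the limit in TG-treated SAMP8 vs SAMR1, at 0.61.

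Over all 67 probe sets of the other pathway genes, 11 were higher and 1 lower by over 1.5-fold in SAMP8 vs SAMR1, where 5.00% and 6.08% of all probe sets were. In TG-treated SAMP8 vs SAMP8, 4 were higher and 4 lower (4.48% and 3.74% of all probe sets), and in TG-treated SAMP8 vs SAMR1 13 were higher and 0 lower (5.62% and 4.83%). Of 18 cochaperones of HSP90 and HSP70, Tomm34 was past the limit in SAMP8 vs SAMR1 and Ahsa1, which speeds the ATPase of HSP90, in TG-treated SAMP8 vs SAMR1, both higher. Ahsa1 had averages of 10.53, 11.04 and 11.38, in the same order of groups as Hsp90ab1. Stip1 (HOP), which joins HSP70 to HSP90, had 13.09, 13.63 and 13.30. Of the 8 subunits of the cytosolic chaperonin CCT, Cct3 alone was past the limit, at 0.72 in SAMP8 vs SAMR1 and 0.63 in TG-treated SAMP8 vs SAMR1, although the subunits act in 1 complex. Among the 6 prefoldin subunits, which feed CCT, Pfdn2 was higher in both SAMP8 groups, Pfdn5 was higher in TG-treated SAMP8 than in either other group, and Pfdn6 was past the limit in TG-treated SAMP8 vs SAMR1.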

How the data were processed

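Hippocampal RNA of 9 mice was measured on Clariom S Mouse arrays, 3 in each group by the sample records, from which the groups were taken. The authors normalized the intensities by SST-RMA in the Transcriptome Analysis Console (version 4.0.2 in the methods, 4.0.1 in the design text), and the deposited tables hold the authors' group averages as log2 signal with 2 decimals. The other columns (fold changes, p-values and false discovery rates) hold the authors' own comparisons and were not used. With 1 average per group, only differences of averages were computed. A probe set counts as past the limit at over 1.5-fold. The share of all 22206 probe sets past it is the background.

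Named are the members past the limit in any comparison, in each class the highest and lowest in TG-treated SAMP8 vs SAMP8 and SAMP8 vs SAMR1, and members fixed by name. Dnajb9 and non-members were chosen once values were known. The members, classes and lists were chosen with earlier results of these data known. Genes were placed among 20 classes of average signal, and differences were also taken less the median of their class of signal and genomic length (10 by 10 classes). Other fold limits (1.2 and 2), leaving out the dimmest 25% of probe sets, centering, 1 value per symbol and leaving out probe sets of several symbols were tried. The counting was tested on simulated data. Promoter sequences were not analysed here. The scripts ran in Python 3.11.15 (pandas 2.3.3, numpy 2.4.6, matplotlib 3.10.9).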

Additional observations from a re-analysis of the deposited data

How the results depend on the processing

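Since the tables hold 1 average per group, no replicate could be left out, and the spread between arrays behind any difference is unknown. No paired analysis was possible because the columns carry no replicate numbers and no test was run. The counts of members depend on the fold limit. At 1.2-fold, 23 members were higher and 9 lower in SAMP8 vs SAMR1 (20.4% and 20.4% of all probe sets), 16 and 7 in TG-treated SAMP8 vs SAMP8 (19.6% and 18.5%), and 26 and 9 in TG-treated SAMP8 vs SAMR1 (20% and 20.5%). At 2-fold, 1 was higher and 0 lower in SAMP8 vs SAMR1 (0.797% and 1.43% of all probe sets), 0 and 0 in TG-treated SAMP8 vs SAMP8 (0.437% and 0.324%), where Stub1 lies on the limit, and 3 and 0 in TG-treated SAMP8 vs SAMR1 (1.12% and 0.684%). Against probe sets of like signal and length, an alternative chosen after seeing the data, 1 member was lower in TG-treated SAMP8 vs SAMP8, the other counts stayed within 1.5 times, Hsp90ab1 and Hspa1l (SAMP8 vs SAMR1), Hspe1 and Dnajc10 (TG-treated SAMP8 vs SAMP8) and Hspa1a, Hspa5 and Stub1 (TG-treated SAMP8 vs SAMR1) were no longer past the limit, and Hsf1 (lower in SAMP8 vs SAMR1) and Hspbap1 (higher in TG-treated SAMP8 vs SAMR1) came past the limit. Leaving out low signal, centering, 1 value per symbol and leaving out probe sets of several symbols kept every count within 1.5 times. Of 180 recomputed medians of classes, of all members and of the heat-inducible list, 164 moved by under 0.1 and 16 by 0.1 or more. In all, 4 medians changed sign, each against probe sets of like signal and length: small HSPs from -0.10 to 0.01 and DNAJC from 0.01 to -0.07 in SAMP8 vs SAMR1, and DNAJA from -0.03 to 0.02 and heat shock factors from -0.03 to 0.05 in TG-treated SAMP8 vs SAMP8.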
